A study of Macaca fascicularis with 32 samples.

Results

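Interneurons are the local neurons of the striatum, and most of their classes are told apart by the peptides, enzymes and transcription factors they make. The 10 genes described here serve that purpose: SST, NPY, PVALB, PTHLH, CHAT, TAC3, KIT, LHX6, NXPH1 and VIP. They were chosen by symbol, and each of the 10 matched 1 of the 22316 genes in the deposited tables. Counts were taken from the 20913 barcodes with at least 2000 UMIs (unique molecular identifiers, 1 per captured RNA molecule) in the 4 striatal libraries. Each such barcode is called a nucleus here.

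The nuclei came from putamen and caudate nucleus ("Caudal nucleus" in the labels) of macaques and were captured on the 10x Chromium 3′ v3 platform. The organism field names Macaca fascicularis, while the extract protocol names Macaca_mulatta. PD is the label of animals in which an AAV (adeno-associated virus) vector plus poly(ADP-ribose) served to model Parkinson's disease, per the series title, and CT that of their controls. The vector's transgene is not named here, and the labels give no age, dose or time after injection. They describe the cell type only as brain. For putamen and caudate nucleus each, the labels list 8 CT and 4 PD samples, but each region and treatment came as 1 matrix whose barcodes carry no sample name. A matrix was thus taken as a single library. No difference below has a replicate check or a p-value, and treatment cannot be told apart from animal or library. Intervals are 95% and cover counting error alone.

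The putamen held 5333 nuclei in CT (median 4727 UMIs) and 3947 in PD (4385). The caudate nucleus held 6102 in CT (4167) and 5531 in PD (5291). Any pair of these libraries shared 2 to 8 barcodes. Projection neurons of the caudate nucleus separated by library: 2 spiny-like clusters drew 1915 and 1774 nuclei from caudate CT against 67 and 39 from caudate PD, and another 2 drew 1442 and 1453 from caudate PD against 57 and 58 from caudate CT. The main spiny-like clusters of the putamen mixed both treatments (1405 CT and 1224 PD nuclei in one, 1538 and 1297 in another). The interneuron clusters described below drew nuclei from all 4 libraries.

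The striatum is built mostly of spiny projection neurons, which send its output, and the rarer interneurons shape their firing. Medium-sized interneurons that contain somatostatin, neuropeptide Y and nitric oxide synthase form one classical group. Fast-spiking parvalbumin interneurons and the large cholinergic interneurons, whose acetylcholine balances dopamine, form others. A primate population marked by TAC3 has been described as well. LHX6 is a transcription factor of interneurons born in the medial ganglionic eminence, and it stays on in several of these groups.

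To see where the 10 genes lay, nuclei were clustered with the 10 genes left out, so that their place in a cluster was not fixed by the clustering. Of 22 clusters, 3 were called GABAergic interneuron-like and 1 cholinergic interneuron-like from marker genes that contain none of the 10. The first, led by CASR, AFF2 and NOS1 and named here the CASR and NOS1 cluster, had 153 nuclei. The ADCY8 cluster (led by ADCY8, OSBPL3 and COL19A1) had 523 nuclei. The NXPH2 cluster (led by NXPH2, PLPP4 and HCRTR2, with CALB2) had 352, and the cholinergic-like cluster (led by CPNE4, with SLC5A7 and LHX8) had 94. These 1122 nuclei are the interneuron-like nuclei below. For comparison, 14597 nuclei were spiny-like and 593 oligodendrocyte-like, while 2478 in 5 clusters were mixed and 2123 in 4 clusters stayed unnamed.

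SST and NPY encode somatostatin and neuropeptide Y, inhibitory peptides released by the same striatal interneurons. Both reached their highest level in the CASR and NOS1 cluster. SST stood there at 455 CPM (UMIs of a gene per 1000000 UMIs of the nuclei counted; interval 408 to 505) and NPY at 1387 CPM (1305 to 1474), over the sum of the 4 libraries. In that cluster, 115 of 153 nuclei held SST and 149 of 153 held NPY. Of the 54 nuclei with at least 3 SST UMIs in all clusters, 50 lay in it, as did 124 of the 138 nuclei with at least 3 NPY UMIs. The cluster held 104 of 401 SST UMIs in putamen CT, 42 of 91 in putamen PD, 114 of 314 in caudate CT and 82 of 160 in caudate PD. For NPY it held 302 of 963, 127 of 320, 364 of 805 and 251 of 478. Most UMIs of both thus lay elsewhere, except in caudate PD. At 1 UMI, 149 SST nuclei were interneuron-like and 545 were not, and 217 NPY nuclei were and 1325 were not.

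Within the CASR and NOS1 cluster, SST was 455 CPM in putamen CT, 388 in putamen PD, 510 in caudate CT and 427 in caudate PD. NPY was 1320, 1172, 1629 and 1308 in the same order. PD libraries were the lower of each pair for both genes. The median nucleus held 7, 5, 6 and 6 NPY UMIs in these libraries, and the highest held 17, 15, 18 and 24.

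LHX6 and NXPH1 were also high there. LHX6 stood at 619 CPM, with 132 of 153 nuclei positive. NXPH1, which encodes neurexophilin 1, a secreted glycoprotein, stood at 1423, with 145 of 153 positive. The cluster was nearly devoid of the other members: KIT had 3 UMIs, PVALB and PTHLH 1 each, and CHAT, TAC3 and VIP 0. A count of 0 in 153 nuclei allows up to 1.96% of nuclei with a UMI at this depth and sets no limit on nuclei that express a gene as sparsely counted as VIP.

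The ADCY8 cluster held most of the NXPH1 RNA. All 523 of its nuclei were positive, at 4107 CPM (4028 to 4186), and the cluster held 59.6% of all NXPH1 UMIs. The median nucleus held 18 and the highest 100. NXPH1 was not limited to interneuron-like nuclei: 318 of the 368 nuclei of a mixed cluster led by VCAN, with all 6 markers of oligodendrocyte precursors, held it at 763 CPM. KIT, a receptor tyrosine kinase for stem cell factor, stood at 326 CPM, with 374 nuclei positive. LHX6 stood at 120, with 214 positive.

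PTHLH, which encodes parathyroid hormone-related protein and marks a striatal interneuron class related to parvalbumin cells, reached its highest level in the ADCY8 cluster, at 35.8 CPM (28.8 to 44.0) in 80 of 523 nuclei. Most nuclei with PTHLH lay elsewhere: 84 were interneuron-like and 408 were not. PVALB, the calcium-binding protein of fast-spiking cells, had 32 UMIs over the 4 libraries, each in a different nucleus. Of these, 8 lay in the 523 nuclei of the ADCY8 cluster (3.15 CPM) and 15 in the 14597 spiny-like nuclei (0.203 CPM). By library, PVALB had 16 UMIs in putamen CT, 10 in putamen PD, 4 in caudate CT and 2 in caudate PD. At these counts PVALB marks no class of nuclei on its own.

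TAC3, which encodes neurokinin B, reached its highest level in the NXPH2 cluster. It stood there at 135 CPM (114 to 158), with 121 of 352 nuclei positive and 47.0% of all TAC3 UMIs. By library the level was 109 in putamen CT, 129 in putamen PD, 135 in caudate CT and 150 in caudate PD. The 4 levels have overlapping intervals. Of the nuclei with TAC3, 123 were interneuron-like and 156 were not. KIT (306 CPM), LHX6 (176) and NXPH1 (1377) were present in the same cluster, while PTHLH, PVALB, CHAT and VIP had 0 UMIs in its 352 nuclei. That allows up to 0.852% of nuclei with a UMI, and for PVALB and VIP, which were rarely detected anywhere, it does not limit the share that express them. An unnamed cluster of 103 nuclei held a further 37 TAC3 UMIs (60.9 CPM). NXPH2, PLPP4 and HCRTR2 led it too, it carried 8 of 15 spiny neuron markers, and its median doublet score was 0.276. Doublets were not removed, and their part in that cluster was not tested.

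CHAT, choline acetyltransferase, makes acetylcholine. The cholinergic-like cluster held 172 of the 183 CHAT UMIs, and all 27 nuclei with at least 3 CHAT UMIs. Its level there was 212 CPM (182 to 247), with 70 of 94 nuclei positive. LHX6 was present in 33 of the 94 nuclei (56.8 CPM), while NXPH1 had 5 UMIs and KIT 1. In the reference annotation, MORN5 overlaps LHX6. MORN5 stood at 87.7 CPM in this cluster, 440 in the CASR and NOS1 cluster, 141 in the ADCY8 cluster and 122 in the NXPH2 cluster. Whether the counting used strand is not given in the sources used here, so LHX6 levels are uncertain to that extent. PTHLH overlaps an uncharacterised locus in the same way.

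VIP, vasoactive intestinal peptide, had 15 UMIs in 13 nuclei. It had 6 in putamen CT, 1 in putamen PD, 5 in caudate CT and 3 in caudate PD. A mixed cluster of 200 nuclei that carried ciliary markers held 6 of them and the ADCY8 cluster 3. At this depth VIP could not be followed further.

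**Figure D1:**
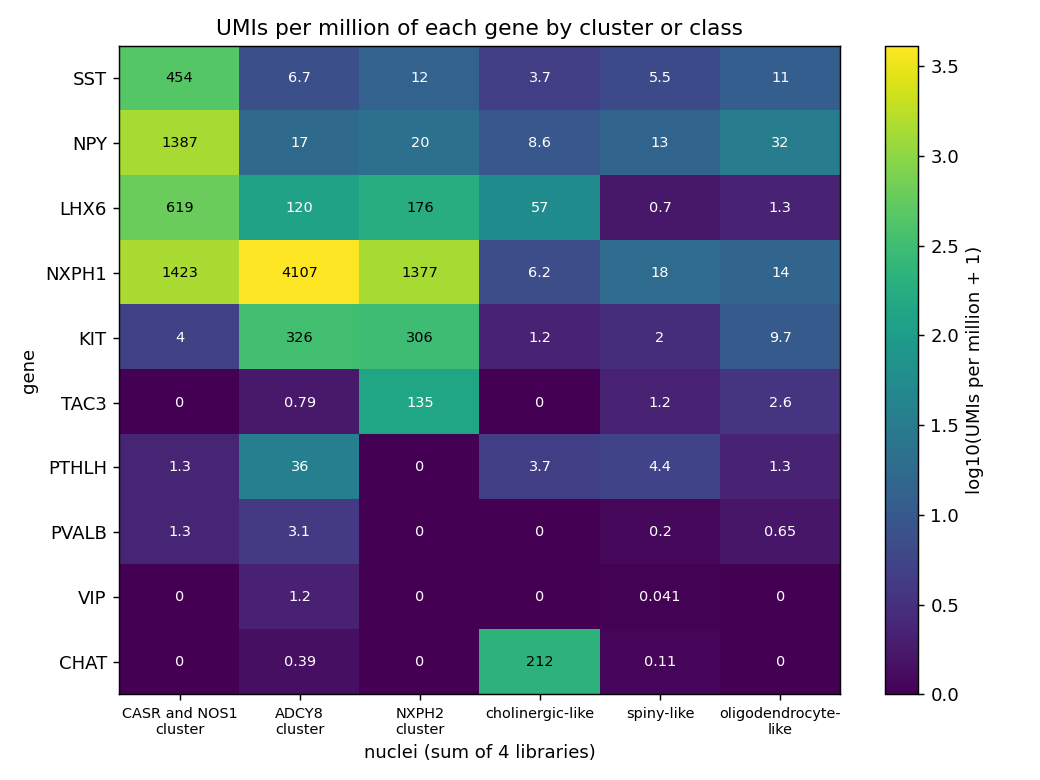
Level of each of the 10 genes (rows) in 4 interneuron-like clusters, spiny-like and oligodendrocyte-like nuclei (columns), as the sum of the 4 libraries. Printed numbers are CPM and colour is log10(CPM + 1). SST and NPY peak in the CASR and NOS1 cluster (455 and 1387), NXPH1 in the ADCY8 cluster (4107), TAC3 in the NXPH2 cluster (135) and CHAT in the cholinergic-like cluster (212).

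Pairs of members in the same nucleus followed these clusters. At least 1 UMI of both SST and NPY was found in 170 nuclei, where the product of their separate shares gives 51.2. With at least 3 UMIs of each, 48 of 54 SST nuclei (88.9%, 77.4 to the upper bound of 95.8) also held NPY. By library, 22.3% of SST nuclei held NPY in putamen CT, 30.3% in putamen PD, 25.1% in caudate CT and 26.7% in caudate PD at 1 UMI. At 3 UMIs the counts were 18 of 18, 6 of 6, 15 of 20 and 9 of 10. Nuclei with a single UMI made up 80.0% to 89.0% of the SST nuclei of a library.

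KIT and NXPH1 met in 697 nuclei against 137 from the product, and 70.3% of KIT nuclei held NXPH1. LHX6 and NXPH1 met in 526 against 89.6, KIT and LHX6 in 266 against 30.7, and TAC3 and KIT in 103 against 13.2. PTHLH and KIT met in 65 against 23.3, and CHAT and LHX6 in 24 against 2.51. These products are taken over all nuclei, most of which are not interneuron-like.

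Other pairs were near or under the product over all nuclei. SST and KIT met in 34 nuclei against 32.9, and at 3 UMIs in 0 of 54 SST nuclei, which allows a share of up to 5.56%. NPY and KIT met in 68 against 73.1. PTHLH and TAC3 met in 0 of 492 PTHLH nuclei, which allows up to 0.610%, against 6.56 from the product. CHAT and NXPH1 met in 6 against 11.2. Of all 45 pairs, 34 lay above the product and 7 had no nucleus. Within the interneuron-like nuclei alone, where the product is taken over 1122 nuclei, 18 of 45 lay above it. SST with NPY remained above (116 against 28.8), as did KIT with NXPH1 (573 against 521), TAC3 with KIT (83 against 64.5) and PTHLH with KIT (56 against 44.02). LHX6 with NXPH1 lay near it (476 against 462).

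Other pairs were under the product there. KIT with LHX6 was found in 245 nuclei against 273, and at 3 UMIs in 4 against 15.1, although over all nuclei it lay above. CHAT with LHX6 was likewise found in 24 against 33.0, and at 3 UMIs in 1 against 2.65. SST with KIT was found in 22 against 78.1 and NPY with KIT in 42 against 114, so the nearness of these pairs to the product over all nuclei did not hold among interneuron-like nuclei.

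**Figure D2:**
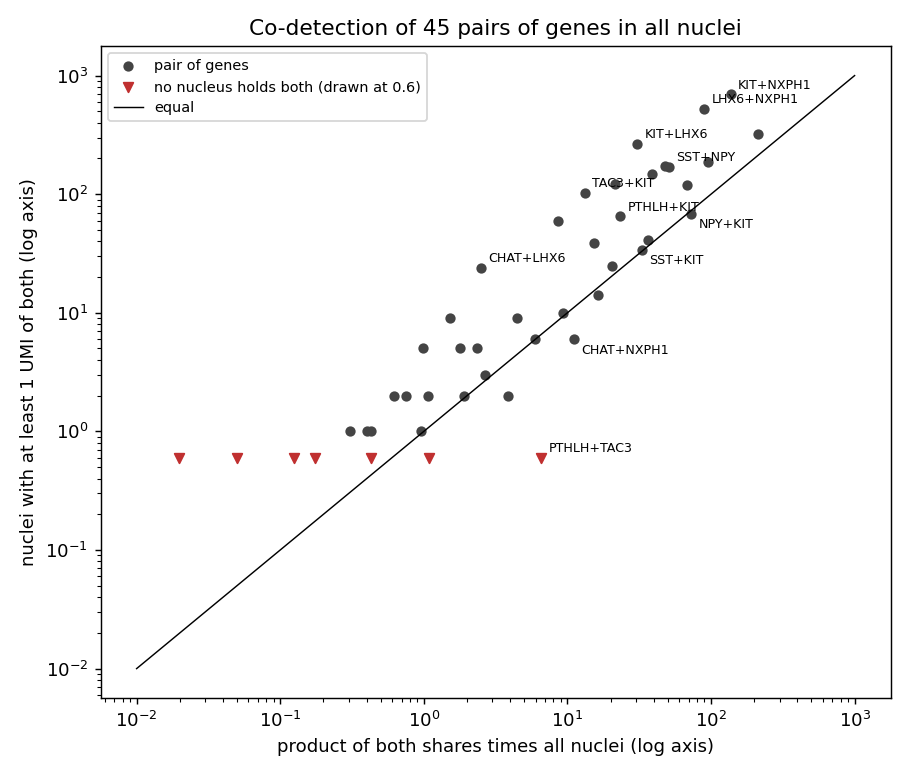
Nuclei with at least 1 UMI of both genes (y axis, log) against the number given by the product of the separate shares (x axis, log), for 45 pairs in the sum of 4 libraries. SST with NPY (170 against 51.2) and KIT with NXPH1 (697 against 137) lie above the line of equality, SST with KIT (34 against 32.9) lies on it in this count over all nuclei, and red triangles mark the 7 pairs with no nucleus.

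Companion genes were read from the nuclei themselves, without clusters. For each member, genes were ranked by the lower of their log2 ratios in putamen CT and caudate CT, comparing nuclei with at least 3 UMIs of the member with nuclei without any. SST nuclei ranked PDE1A, AFF2, ZNF804B, NOS1 and TLL2 highest, and NPY nuclei CASR, AFF2, PDE1A, TLL2 and MORN5. NOS1, the neuronal nitric oxide synthase, stood in the SST nuclei of putamen CT at 4973 CPM against 93.7 in nuclei without SST. In the PD libraries, which did not choose these genes, its log2 ratio was 6.28 in putamen and 6.30 in caudate nucleus, against 5.71 and 6.36 in CT. CASR, the calcium-sensing receptor, had log2 ratios of 6.70 and 7.10 in the NPY nuclei of the PD libraries.

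CHAT nuclei ranked CPNE4, TRPC4, PDE1C and SDK1 among their highest. The CPNE4 log2 ratio was 8.15 in putamen CT, 8.20 in putamen PD, 7.40 in caudate CT and 7.58 in caudate PD. A single nucleus in caudate PD held 3 CHAT UMIs. KIT nuclei ranked COL19A1, PDZRN3, KCNC2, SFTA3 and TACR3 highest, and NXPH1 nuclei KCNC2, ADCY8, PDZRN3, EGFR and COL19A1. COL19A1 in KIT nuclei had a log2 ratio of 6.37 in putamen PD and 3.96 in caudate PD, where it ranked 21. LHX6 nuclei shared AFF2, PDE1A, TLL2, MORN5 and NOS1 with the SST or NPY nuclei. PVALB, PTHLH, TAC3 and VIP had too few nuclei with 3 UMIs to rank any gene.

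TACR3, the receptor for neurokinin B, was high in the ADCY8 cluster (181 CPM) and the NXPH2 cluster (144), against 1.33 in the CASR and NOS1 cluster and 1.07 in spiny-like nuclei. TACR1, the receptor for substance P, was high in the CASR and NOS1 cluster (1496) and the cholinergic-like cluster (890), against 20.8 in spiny-like nuclei. KITLG, which encodes the ligand of KIT, stood at 89.1 in the NXPH2 cluster, 48.02 in the ADCY8 cluster, 28.3 in spiny-like nuclei and 1.33 in the CASR and NOS1 cluster. NPY1R, a receptor for NPY, was higher in spiny-like nuclei (67.3) than in the 4 interneuron-like clusters (7.13 to 14.8).

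The first comparison asked how the 10 genes differed between PD and CT over all nuclei of the putamen. A gene was tested with at least 50 UMIs over both libraries and called when past 2-fold. Both peptides of the CASR and NOS1 cluster were the members called. SST stood at 14.4 CPM in CT and 4.85 in PD, a PD over CT ratio of 0.338 (0.266 to 0.425). NPY stood at 34.5 and 17.04, a ratio of 0.494 (0.434 to 0.562). Both were lower in PD, and their intervals exclude 1.

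Thus 2 of the 8 members tested were past 2-fold lower and 0 higher, and PVALB and VIP fell under the filter. Of all 13840 genes tested in putamen, 2.80% were past 2-fold lower and 1.81% higher. KIT stood at 12.8 CPM in CT against 9.16 in PD (ratio 0.715, 0.592 to 0.860) and NXPH1 124.9 and 97.1 (0.777, 0.734 to 0.823). LHX6 was 11.6 and 9.85 (0.850, 0.705 to 1.02), PTHLH 7.52 and 6.50 (0.864, 0.686 to 1.09) and TAC3 2.29 and 1.76 (0.767, 0.488 to 1.19). CHAT alone among the 8 was higher in PD, at 2.18 and 3.84 (1.76, 1.23 to 2.51). The median log2 difference was -0.37 over the 8 members and -0.06 over all genes tested.

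The caudate nucleus showed lower levels of both peptides in PD as well. SST stood at 11.4 CPM in CT and 5.03 in PD, a ratio of 0.441 (0.362 to 0.535). NPY stood at 29.3 and 15.03, a ratio of 0.513 (0.458 to 0.576), just short of 2-fold. CHAT was 1.27 in CT and 0.472 in PD, a ratio of 0.371 (0.188 to 0.696) from 35 and 15 UMIs.

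SST and CHAT made 2 of 8 tested members past 2-fold lower, with 0 higher, against 4.04% and 1.75% of 14292 genes. KIT (19.5 and 19.1, ratio 0.981), NXPH1 (208 and 203, 0.976) and TAC3 (3.64 and 3.90, 1.07) lay near equality. LHX6 (12.9 and 9.24, 0.714) and PTHLH (3.64 and 2.80, 0.770) were lower in PD. The interval of LHX6 was 0.610 to 0.836 and that of PTHLH 0.572 to 1.03. The median log2 difference was -0.43 over the 8 members and -0.13 over all genes tested, so genes in general lay slightly lower in caudate PD on this scale.

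Counts of nuclei, made from the same UMIs, were also lower in PD for both peptides. SST was found in 319 nuclei of putamen CT (5.98%) and 66 of putamen PD (1.67%), and in 219 (3.59%) and 90 (1.63%) of the caudate nucleus. NPY was found in 630 (11.8%), 204 (5.17%), 472 (7.74%) and 236 (4.27%). Both were in a smaller share of nuclei in each PD library. Thinned to 2000 UMIs, the SST shares were 3.00%, 0.887%, 1.97% and 0.759%, and the NPY shares 5.78%, 2.53%, 4.15% and 2.26%. Most of these nuclei held 1 UMI, and nuclei with at least 3 SST UMIs numbered 18, 6, 20 and 10. At 3 UMIs the PD over CT ratio of SST shares was 0.450 (0.146 to 1.18) in putamen and 0.552 (0.231 to 1.24) in caudate nucleus. That of NPY was 0.534 (0.286 to 0.956) and 0.653 (0.398 to 1.05), so only the NPY interval of putamen excludes equality. KIT nuclei numbered 220, 110, 316 and 345 and NXPH1 nuclei 550, 304, 1044 and 994, so both were commoner in the caudate nucleus. LHX6 was in 153, 100, 222 and 173 nuclei, PTHLH in 197, 118, 93 and 84, TAC3 in 56, 29, 93 and 101, and CHAT in 20, 29, 21 and 11.

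**Figure D3:**
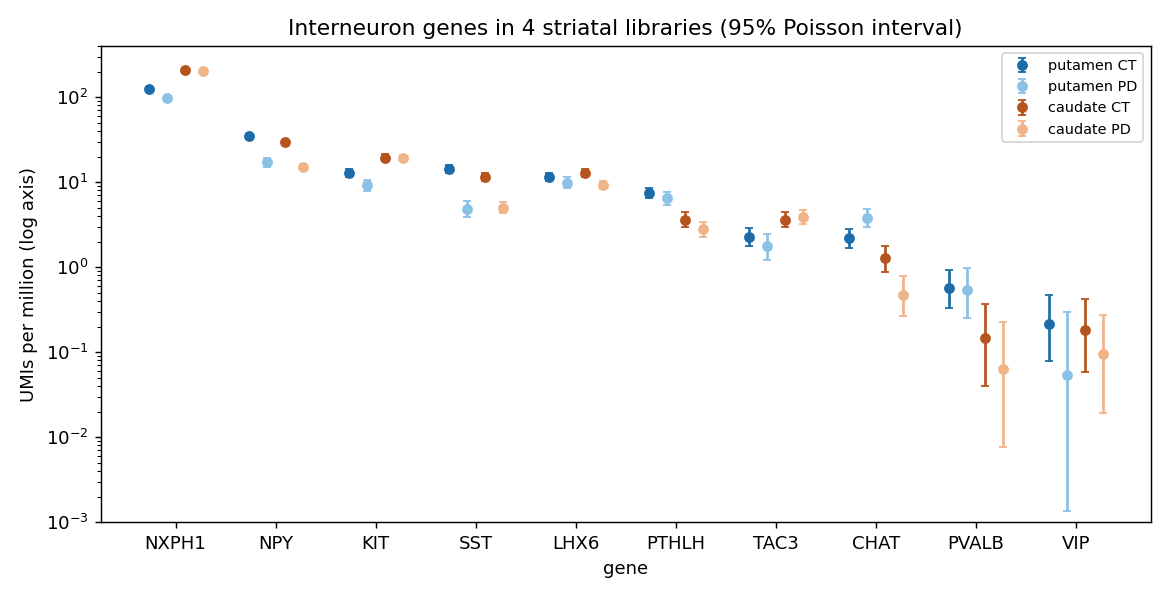
CPM (y axis, log) of the 10 genes in each of the 4 striatal libraries, with 95% Poisson intervals for counting error. SST and NPY are lower in both PD libraries than in CT of the same region (SST 14.4 and 4.85 in putamen, 11.4 and 5.03 in caudate nucleus), while KIT and NXPH1 of the caudate nucleus are nearly level.

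The SST and NPY ratios were nearer 1 inside the CASR and NOS1 cluster than outside the interneuron-like nuclei. Inside the CASR and NOS1 cluster the PD over CT ratio of SST was 0.853 (0.581 to 1.23) in putamen and 0.837 (0.623 to 1.12) in caudate nucleus. That of NPY was 0.888 (0.716 to 1.10) and 0.803 (0.681 to 0.945). In spiny-like nuclei the ratio of SST was 0.255 (0.171 to 0.369) in putamen and 0.257 (0.177 to 0.365) in caudate nucleus, and that of NPY 0.424 (0.346 to 0.519) and 0.426 (0.346 to 0.521). The SST intervals of the cluster and of spiny-like nuclei do not overlap in either region, nor do those of NPY. SST and NPY were thereby the members called in spiny-like nuclei, 2 of 4 tested in putamen and 2 of 6 in caudate nucleus, both lower, against 2.89% and 4.55% of genes. Over all nuclei outside the interneuron-like ones, 2 of 7 tested were past 2-fold lower in each region, SST and NPY in both, against 2.90% and 4.05%. In the CASR and NOS1 cluster 0 of 4 were past 2-fold in each region, against 6.17% and 2.96%. Different clusters hold most spiny-like nuclei of caudate CT and caudate PD, as given above.

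The level behind the spiny-like ratios was low. SST was 10.1 CPM in putamen CT, 2.58 in putamen PD, 7.23 in caudate CT and 1.86 in caudate PD, and NPY 23.0, 9.78, 14.9 and 6.34. With each nucleus thinned to 2000 UMIs, 2.26% of spiny-like nuclei of putamen CT held SST, against 4.98% of oligodendrocyte-like nuclei, which should lack the peptide. Unthinned, the shares were 5.07% and 4.98%, at median depths of 4729 and 2383 UMIs. In putamen PD the thinned shares were 0.539% and 1.60%, and in caudate PD 0.459% and 1.65%.

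In caudate CT the thinned share of SST was 1.51% in spiny-like nuclei, and 0 of 22 oligodendrocyte-like nuclei held it, which allows up to 13.6%. For NPY the spiny-like share was below the oligodendrocyte-like one in the other 3 libraries, from 4.87% against 7.46% in putamen CT to 1.49% against 2.75% in caudate PD. In putamen CT, putamen PD and caudate PD, the thinned share of spiny-like nuclei with SST or NPY thus did not exceed that of cells that should lack them. Thinning removes more UMIs from the deeper spiny-like nuclei, so this order cannot decide whether they express either gene. The share is not read here as expression. The 22 oligodendrocyte-like nuclei of caudate CT, of which 1 held NPY after thinning, are too few to place either gene in that library.

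Barcodes under 2000 UMIs, which were left out of the counts above, also had lower SST and NPY in PD. In them SST stood at 49.4 CPM in putamen CT and 14.1 in putamen PD (ratio 0.285, 0.213 to 0.376), and at 22.5 and 10.2 in the caudate nucleus (0.452, 0.311 to 0.650). NPY stood at 91.6 and 34.9 (0.381, 0.316 to 0.457) and at 64.7 and 26.4 (0.408, 0.327 to 0.508). These levels are above those of the nuclei. Other members differed in these barcodes too: the ratio was 0.2498 (0.126 to 0.468) for LHX6, 0.406 (0.239 to 0.677) for TAC3 and 0.567 (0.521 to 0.618) for NXPH1 in the caudate nucleus. In putamen it was 0.236 (0.0804 to 0.573) for PTHLH and 1.54 (1.37 to 1.73) for NXPH1, so a difference in these barcodes was not limited to SST and NPY. The part of RNA outside the nuclei in the whole-library ratios was not tested.

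The SST to NPY ratio of UMIs was 0.344 in the CASR and NOS1 cluster of putamen CT and 0.439 in spiny-like nuclei of that library. In putamen PD it was 0.331 and 0.264, in caudate CT 0.313 and 0.485, and in caudate PD 0.327 and 0.293. LHX6 gave 0.533 UMIs per NPY UMI in the CASR and NOS1 cluster of putamen CT and 0.0366 in its spiny-like nuclei. The other 3 libraries gave 0.360 to 0.496 in the cluster and 0.0465 to 0.0786 in spiny-like nuclei. NOS1 did not show this contrast. Per NPY UMI it gave 3.95 in the cluster and 4.16 in spiny-like nuclei of putamen CT, and 4.49 and 6.50 in putamen PD. In caudate CT it gave 2.21 and 2.10, and in caudate PD 2.05 and 3.71. Oligodendrocyte-like nuclei gave 0.375 in putamen CT, 0.143 in putamen PD and 0.222 in caudate PD. The reason for these differences was not tested.

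**Figure D4:**
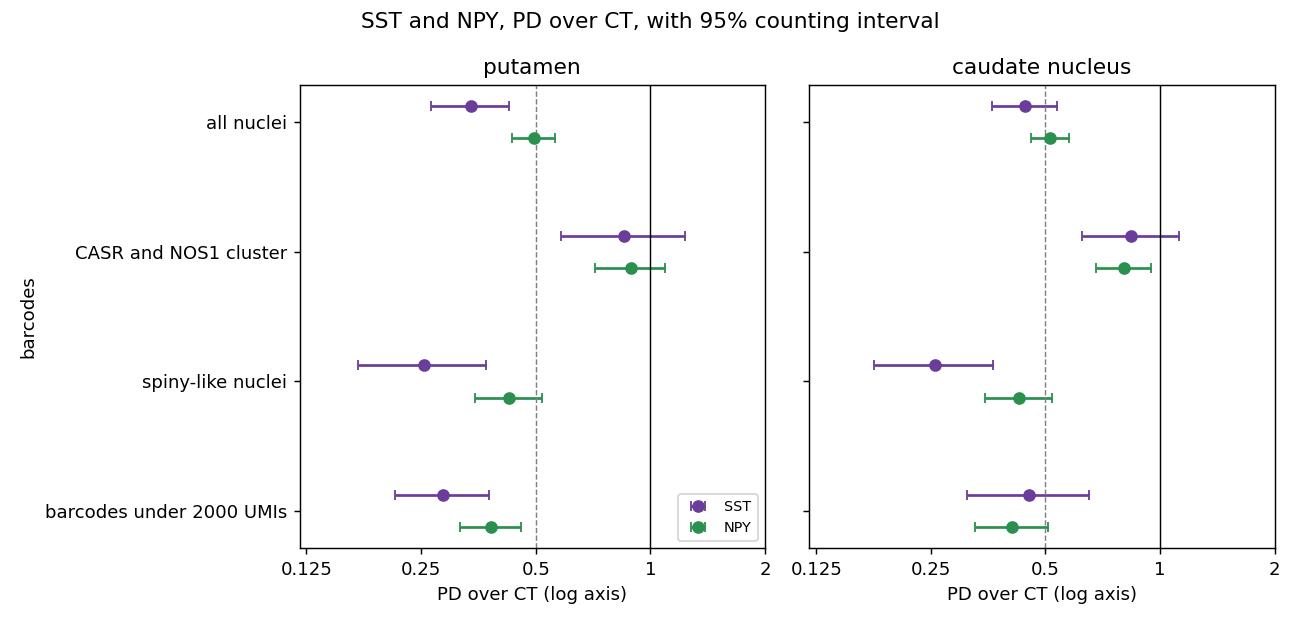
PD over CT ratio (x axis, log) of SST and NPY with 95% counting intervals in putamen (left) and caudate nucleus (right), over all nuclei, the CASR and NOS1 cluster, spiny-like nuclei and barcodes under 2000 UMIs. The solid line marks equality and the dashed line 2-fold lower. In the CASR and NOS1 cluster the ratios are 0.803 to 0.888, and in spiny-like nuclei 0.255 to 0.426.

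Over all interneuron-like nuclei, 0 of the 6 members tested in putamen and 0 of the 7 tested in caudate nucleus were past 2-fold. Of all genes tested in those nuclei, 2.58% were past 2-fold in either direction in putamen and 2.68% in caudate nucleus. SST and NPY gave 0.569 and 0.589 in putamen, and 0.674 and 0.670 in caudate nucleus. The 4 clusters make up different shares of this class in each library. The CASR and NOS1 cluster made up 0.788% of nuclei in putamen CT (42 nuclei) and 0.633% in PD (25), a ratio of 0.804 (0.470 to 1.35). In the caudate nucleus it made up 0.869% (53) and 0.597% (33), a ratio of 0.687 (0.431 to 1.08). Both intervals include 1.

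Inside the ADCY8 cluster, KIT had a PD over CT ratio of 0.940 (0.710 to 1.24) in putamen and 0.926 (0.785 to 1.09) in caudate nucleus. NXPH1 gave 0.949 (0.883 to 1.02) and 1.07 (1.02 to 1.12). PTHLH had 33 UMIs in putamen CT and 8 in putamen PD (0.428, 0.171 to 0.945), under the filter, and 22 and 28 UMIs in the caudate nucleus (1.29, 0.712 to 2.37). In this cluster 0 of 3 tested members in putamen and 0 of 4 in caudate nucleus were past 2-fold, against 2.88% and 2.91% of genes. The cluster held 2.01% of putamen nuclei in CT and 1.55% in PD, and 3.23% and 2.86% of caudate nuclei.

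Inside the NXPH2 cluster, KIT was 0.597 (0.388 to 0.901) and NXPH1 0.647 (0.515 to 0.809) of the CT level in putamen PD, while LHX6 was 1.73-fold (1.08 to 2.79). In the caudate nucleus the same genes gave 1.07 (0.820 to 1.41), 0.9003 (0.802 to 1.01) and 0.807 (0.555 to 1.17). Of the 3 members tested in that cluster in putamen and 4 in caudate nucleus, 0 were past 2-fold, against 1.93% and 2.53% of genes. TAC3 in the caudate nucleus gave 1.11 (0.750 to 1.66).

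CHAT differed between regions in its direction. Over all nuclei it was 1.76-fold in putamen PD and 0.371-fold in caudate PD. These UMIs came from 20 nuclei in putamen CT and 29 in PD, and from 21 and 11 in the caudate nucleus. The cholinergic-like cluster itself held 24 of 5333 nuclei (0.450%) in putamen CT and 28 of 3947 (0.709%) in PD, a ratio of 1.58 (0.881 to 2.84). In the caudate nucleus it held 28 of 6102 (0.459%) and 14 of 5531 (0.253%), a ratio of 0.552 (0.268 to 1.08).

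Inside that cluster, CHAT was 249 CPM in putamen CT and 262 in PD (1.053, 0.733 to 1.52). It was 181 in caudate CT and 90.4 in caudate PD (0.499, 0.234 to 0.995), from 32 and 12 UMIs, which is under the filter. SLC5A7, the choline transporter of these cells, stood over all nuclei at 3.12 CPM in CT and 4.21 in PD of the putamen (1.35, 0.983 to 1.85), and at 4.11 and 2.201 in the caudate nucleus (0.536, 0.392 to 0.728). LHX8, a transcription factor of cholinergic neurons, gave 2.16 (1.52 to 3.07) and 0.559 (0.388 to 0.799).

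**Figure D5:**
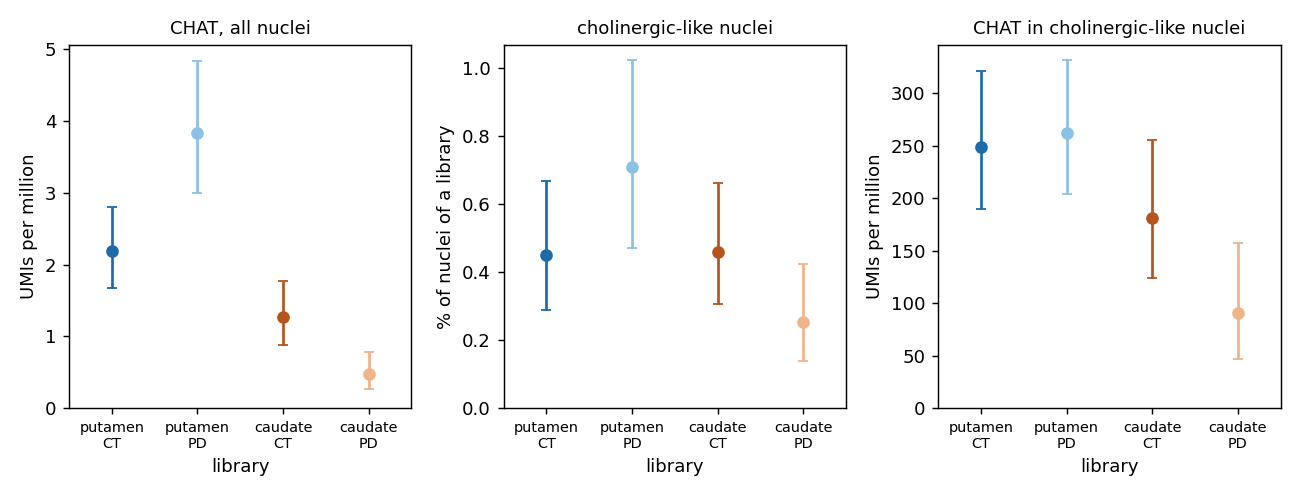
CHAT over all nuclei (left, CPM), nuclei of the cholinergic-like cluster (middle, % of nuclei of a library) and CHAT inside that cluster (right, CPM) in the 4 libraries, with 95% counting intervals. All 3 values are lowest in caudate PD (0.472, 0.253% and 90.4).

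The regions also differed from each other. PTHLH was higher in putamen than in caudate nucleus, by 2.07-fold (1.62 to 2.65) in CT and 2.32-fold (1.75 to 3.09) in PD. NXPH1, KIT and TAC3 were higher in caudate nucleus. In CT they were 1.67-fold (1.60 to 1.74), 1.52-fold (1.33 to 1.74) and 1.59-fold (1.15 to 2.21) higher there, and in PD 2.09-fold, 2.08-fold and 2.22-fold. CHAT was 1.72-fold (1.11 to 2.68) higher in putamen in CT and 8.13-fold (4.62 to 15.3) in PD, the last from 72 and 15 UMIs. LHX6 differed little (1.12-fold, 0.957 to 1.30, in CT). One member of the 8 tested was past 2-fold between the CT libraries and 5 between the PD libraries, against 4.30% and 4.21% of genes. These comparisons use the same libraries as those of PD and CT.

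The clusters rich in NXPH1, KIT or TAC3 differed in the same direction as these genes. The ADCY8 cluster held 3.23% of caudate CT nuclei and 2.01% of putamen CT nuclei, and the NXPH2 cluster 2.02% and 1.14%. PTHLH, highest in the ADCY8 cluster, went the other way. The cholinergic-like cluster was nearly level, at 0.459% of caudate CT nuclei and 0.450% of putamen CT nuclei. PTHLH of spiny-like nuclei stood at 6.80 and 6.67 CPM in putamen CT and PD, and 3.33 and 2.17 in caudate CT and PD. Thinned to 2000 UMIs, 0.891% (0.745 to 1.06) of all spiny-like nuclei held PTHLH, against 0.337% (0.0409 to 1.21) of oligodendrocyte-like ones. These intervals overlap, so the thinned shares do not tell these classes apart. In barcodes under 2000 UMIs, PTHLH stood at 5.69 CPM in putamen CT and 1.34 (0.492 to 2.92) in putamen PD. The caudate nucleus had 4.45 in CT and 2.03 in PD. Only in putamen PD did the spiny-like interval (5.35 to 8.22) lie above that of these barcodes. Whether spiny-like nuclei express PTHLH was not tested.

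In the 2 libraries of the substantia nigra, NXPH1 stood at 312 CPM in CT and 472 in PD and SST at 1.55 and 3.72, while LHX6 had 2 and 8 UMIs and NPY 3 and 6.

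Partner genes of the members were counted from lists drawn up by function. Over all nuclei of the putamen, 0 of the 5 peptide receptors tested, of 16 listed, were past 2-fold, and in the caudate nucleus 2 of 8, both lower, where 4.04% of all genes were lower and 1.75% higher (2.80% and 1.81% in putamen): SSTR5 (0.359, 0.230 to 0.549) and VIPR1 (0.422, 0.238 to 0.727). Of the cholinergic genes, 0 of 3 were past 2-fold in putamen and 1 of 4 in caudate nucleus, CHRNA3 (0.313, 0.181 to 0.524), a nicotinic receptor subunit that stood at 37.4 CPM in the NXPH2 cluster and 0.501 in spiny-like nuclei. Of the 5 genes of GABA synthesis and transport and the 9 further interneuron markers tested, 0 were past 2-fold in either region. The median log2 difference over the tested genes of a list was 0.11 in putamen and -0.41 in caudate nucleus for the peptide receptors, and 0.27 and -0.68 for the cholinergic genes. For GABA synthesis and transport it was -0.11 and -0.10, for the lineage factors -0.13 and -0.26, and for the further markers -0.20 and -0.05. Over all genes tested it was -0.06 and -0.13.

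Of the interneuron lineage factors, 1 of 11 in putamen (LHX8, higher) and 0 of 12 in caudate nucleus were past 2-fold. Within interneuron-like nuclei, LHX8 was 2.05-fold (1.40 to 3.03) and ADARB2 0.341-fold (0.166 to 0.648, from 52 and 12 UMIs) in putamen, and no other gene of these lists with at least 50 UMIs over both libraries was past 2-fold in either region. Genes under that filter are not counted, such as SLC32A1, the vesicular GABA transporter, at 0.462 (0.227 to 0.895) in caudate nucleus. LHX8 stood at 228.5 CPM in the cholinergic-like cluster, against 0.787 to 28.5 in the other interneuron-like clusters. In putamen the cholinergic-like cluster held 24 of 234 interneuron-like nuclei in CT and 28 of 163 in PD. GAD1, which makes GABA, gave 1.10 (0.934 to 1.30) and 1.25 (1.11 to 1.40) in interneuron-like nuclei, and NOS1 0.719 (0.651 to 0.794) and 0.672 (0.602 to 0.750). The CASR and NOS1 cluster held 1194 of the 1219 NOS1 UMIs of this class in putamen CT and 570 of 593 in PD. In the caudate nucleus it held 804 of 824 and 515 of 541. That cluster made up a different share of the class in each library, so the NOS1 ratio does not give the level inside it.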

How the data were processed

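Counts of UMIs per gene and barcode were deposited as 6 matrices made with Cell Ranger 7.0.1, per the file headers, with no normalization. The submitters' processing notes name hg38, although the gene identifiers carry the ENSMFAG prefix. Whether free RNA or doublets were removed is not given in the sources used here. The group of a matrix comes from its name.

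Barcodes with at least 2000 UMIs were used and doublets were kept (Scrublet scores, expected rate 0.06, served in 1 alternative). Nuclei were clustered in scanpy 1.11.5 without the 10 genes (2000 variable genes, 30 components, 15 neighbours, Leiden resolution 1.0, no batch correction). A cluster was named when at least 3 markers of a class reached 30% of their highest cluster, 10 UMIs and 10 CPM, unless a second class reached 50% of its share, its median doublet score passed 0.25, or more markers of a different class stood among its 10 leading genes. This naming rule was set after the data were seen. The members and lists were chosen with earlier results of these data known.

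Levels are CPM (UMIs of a gene per 1000000), with exact Poisson intervals. Shares have Clopper-Pearson intervals and ratios conditional binomial ones, all at 95%. Ratios were computed for every gene. The ratios, their intervals and the 2-fold calls were tested on simulated library totals with Poisson counts. Clustering, thinning, co-detection and companion ranking were not tested in that way. All 10 members are named. Companion genes are the 5 with at least 30 UMIs in the positive nuclei of both CT libraries that rank highest by the rule given with them, with 1 CPM added. Gene overlaps come from a RefSeq gene table of the organism. Alternatives were other UMI minimums, thinning, scaling, filters, folds, doublet removal and clustering. Some genes that met these rules are not reported here.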

Additional observations from a re-analysis of the deposited data

Results flagged for a closer look

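CHAT moved in opposite directions in the 2 regions. Its PD over CT ratio over all nuclei was 1.76 (1.23 to 2.51) in putamen and 0.371 (0.188 to 0.696) in caudate nucleus. These intervals take UMIs as independent, although 1 nucleus held up to 9. For shares of CHAT nuclei the ratios were 1.96 (1.07 to 3.65) and 0.578 (0.252 to 1.25). Thinned to 2000 UMIs they were 1.49 (0.573 to 3.90) and 0.276 (0.0500 to 1.02). At 3 UMIs they were 1.65 (0.622 to 4.51) and 0.184 (0.00400 to 1.52). Only the first of these share intervals excludes equality. With 1 library per region and treatment, the difference between regions was not tested. The counts were 61 and 72 UMIs in putamen and 35 and 15 in caudate nucleus, of which the cholinergic-like cluster held 59, 69, 32 and 12.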

How the results depend on the processing

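No paired analysis was possible because each region and treatment was deposited as 1 matrix with no map from barcodes to the numbered samples. Of 199 values of single members under alternative settings, 184 moved by less than the counting interval, 15 moved by more and 0 reversed a called direction. SST ranged from -1.75 to -1.46 on the log2 scale in putamen and from -1.23 to -0.96 in caudate nucleus, and NPY from -1.17 to -0.96 and from -0.96 to -0.70. TAC3 and LHX6 in putamen crossed equality (-0.52 to 0.09 and -0.52 to 0.02), as did TAC3, KIT and NXPH1 in caudate nucleus (-0.09 to 0.55, -0.06 to 0.19 and -0.14 to 0.09). The 2 members past 2-fold in putamen became 1 with median-of-ratios scaling and 1 without barcodes of doublet score above 0.25, since NPY then lay just inside 2-fold (-0.96 and -0.98). The 2 in caudate nucleus became 0 with at least 4000 UMIs per barcode and 1 with thinning to 2000 UMIs. CHAT there passed the filter in 6 alternatives and lay from -1.44 to -1.30 in them, so it left the count only by falling under the filter. Within interneuron-like nuclei, the 0 became 1 in each region with a filter of 10 UMIs (PTHLH in putamen at 0.391, from 34 and 9 UMIs, and CHAT in caudate nucleus at 0.416, from 32 and 13), and 3 in putamen at 1.5-fold. With interneuron-like clusters left out, an alternative chosen after seeing the data, the count was again 2 in each region. It was SST and NPY in both, so in caudate nucleus NPY passed 2-fold there (0.458), and CHAT fell under the filter. The share of SST nuclei that held NPY was 65.7%, 69.2%, 57.1% and 77.8% at 2 UMIs, and 100%, 100%, 75.0% and 90.0% at 3 UMIs, in putamen CT, putamen PD, caudate CT and caudate PD. With 1 library per group, the spread between animals is unknown, and PVALB and VIP are below what this depth can compare.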
